A study of Oryza sativa Japonica Group with 8 samples.

Results

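Across 8 libraries of rice organs, 113 of 41805 loci were abundant in every library and stayed within 1.8-fold in the deposited values. How many of the 113 still did so after rescaling the libraries ran from 3 to 92, by the rescaling used. A locus was counted as steady when its genomic span was 300 bp or more, its value was at least 50 FPKM in every library, and its highest value was at most 1.8 times its lowest. FPKM is the number of sequenced fragments scaled by a length and by a measure of library size. The sources used here do not state which length or which library scaling was used. Of the 41805 loci, 38124 were long enough, 24889 of these were above 0 in every library, 1696 reached the floor of 50 FPKM everywhere, and 113 of the 1696 (6.66%) also met the limit. The loci were thus selected on the 8 deposited values themselves, so their steadiness is a description and no test was made of it.

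Rice (Oryza sativa ssp. Japonica) was grown in a greenhouse, and polyadenylated RNA was sequenced from a single stranded library per group. The groups were flower buds, flowers taken on the flowering day, flag leaves and roots before flowering, flag leaves and roots after flowering, milk grains (unripe grains whose contents are still liquid) and mature seeds. Each leaf or root sample mixed several stages of its period, per the labels' protocols, and no genotype or treatment difference between groups is given. With 1 library per group, a difference between organs and a difference between libraries cannot be told apart. In bulk tissue, fewer cells of a type and less RNA per cell cannot be told apart either.

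Genes with steady transcript levels across organs are often called housekeeping genes, because many of them serve functions that every living cell uses, such as protein synthesis, protein turnover, membrane traffic and the cytoskeleton. In plants such genes are used as internal references when transcript levels are measured by PCR, where a reference that shifts between organs shifts every value set against it. The deposited identifiers come without gene names, and 0 of the identifiers were found in the reference table of 39387 rice genes. The loci are therefore given by identifier and by position on Release 7 of the MSU rice genome annotation, without roles, and whether a position is exonic, intronic or untranslated was not analysed here.

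The sources used here give no read totals. At loci of 101 bp, the shortest in the table, the values came in whole steps. In every library the step was larger on the minus than on the plus strand, as with 4438 and 4070 FPKM in roots before flowering. If 1 step is 1 fragment, scaled alike in every library, the depths were 1.64 to 7.68 times that of mature seeds, the shallowest. The sources do not state the scaling, so these depths are estimates. By them the library labelled roots after flowering was the deepest. Across loci of 300 bp or more its values correlated at 0.97 (Spearman, over loci, which are not independent replicates) with leaves after flowering. With roots before flowering they correlated at 0.68. It goes against its label, so the counts, deviations and rescalings that use all 8 libraries together are also given without it. Over the other 7 libraries, 1754 loci reached the floor and 138 were steady, a set that holds the 113 by construction.

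Steady loci were the lower tail of a continuous range. Among the 1696 loci at the floor, 4 had a highest-over-lowest ratio of at most 1.3, 25 of at most 1.5, 213 of at most 2 and 699 of at most 3. The median ratio was 1.65 in the steady loci and 3.58 in the other 1583, whose highest ratio was 563. Just inside the limit stood M_XLOC_040052 (chromosome 9, 12540619 to 12550354, minus strand) at 1.795 and M_XLOC_032069 (chromosome 6, 27286243 to 27292852, minus strand) at 1.796. Just outside it were M_XLOC_021338 (chromosome 3, 32092353 to 32095619, minus strand) and P_XLOC_011333 (chromosome 12, 9343619 to 9365585, plus strand), both at 1.802. No gap in the ratios separates the loci on either side of the limit.

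**Figure D1:**
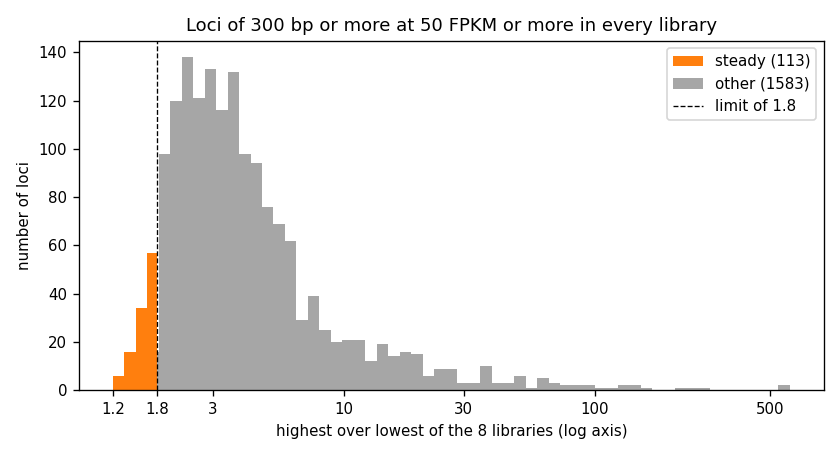
Number of loci (vertical axis) by the ratio of the highest to the lowest of their 8 deposited values (horizontal axis, log scale), for loci of 300 bp or more at 50 FPKM or more in every library. The 113 steady loci (orange) form the left tail and join the 1583 other loci (grey) without a gap at the limit of 1.8 (dashed line).

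As deposited, the steadiest locus was M_XLOC_025307 (chromosome 4, 31411928 to 31416244, minus strand), which also had the lowest geometric mean, 56.4 FPKM. Its values were 62.7 FPKM in flower buds, 55.2 in flowers, 51.5 in leaves before flowering, 58.7 in flag leaves after it, 60.1 in pre-flowering roots, 51.7 in the library labelled roots after flowering, 61.1 in milk grains and 51.2 in mature seeds. Flower buds were highest and mature seeds lowest, 1.23-fold apart, and both stages of leaves and of seeds fell inside that range.

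P_XLOC_013374 (chromosome 2, 1784550 to 1788179, plus strand) was as even at a higher level, also with a ratio of 1.23. It stood at 157 FPKM in flower buds, 166 in flowers, 162 in leaves before flowering, 181 in flag leaves after it, 175 in pre-flowering roots, 149 in the library labelled roots after flowering, 161 in milk grains and 147 in mature seeds. As in the first locus, mature seeds were lowest, but here leaves after flowering were highest.

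M_XLOC_012723 (chromosome 12, 21230079 to 21235123, minus strand) ranged from 55.5 FPKM in flowers to 70.4 in leaves after flowering, a ratio of 1.27. P_XLOC_000893 (chromosome 1, 8759361 to 8763969, plus strand) ranged from 77.5 in flowers to 100.2 in milk grains, a ratio of 1.29. Both were lowest in flowers.

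P_XLOC_028798 (chromosome 6, 885830 to 892703, plus strand) ranged from 149 FPKM in mature seeds to 196 in roots before flowering, with a ratio of 1.32. P_XLOC_018816 (chromosome 3, 14316087 to 14323469, plus strand), also with a ratio of 1.32, ranged from 56.3 in mature seeds to 74.2 in flower buds. In both, the flower bud and root values before flowering lay above either seed value.

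M_XLOC_020991 (chromosome 3, 28551949 to 28555422, minus strand) showed the opposite order, with 52.8 FPKM in flower buds, its lowest value, and 71.2 in milk grains, its highest. P_XLOC_002589 (chromosome 1, 26811849 to 26816727, plus strand) had the highest level of the 8 steadiest, between 207 in leaves before flowering and 281 in mature seeds. Of these 8 loci, 4 were lowest in mature seeds and 1 was highest there, so they share no single order of organs.

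**Figure D2:**
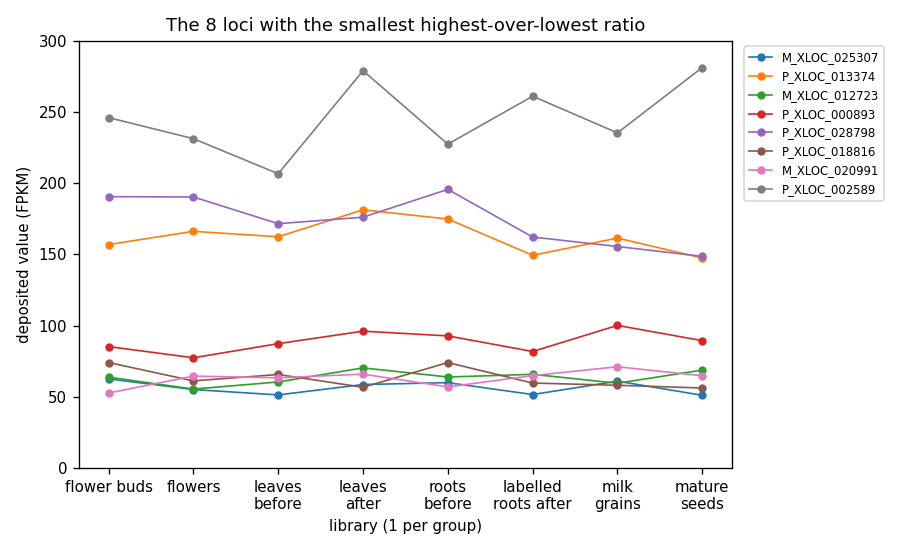
Deposited values in FPKM (vertical axis, from 0) of the 8 loci with the smallest highest-over-lowest ratio in each of the 8 libraries (horizontal axis), with 1 point per library and lines only joining points of the same locus. Levels differ between loci, from about 56.4 FPKM for M_XLOC_025307 to 245 FPKM for P_XLOC_002589 as geometric means. As deposited, each locus stays within 1.36-fold, but with equal sums over all loci the ratios were 2.18 to 3.29.

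Steady loci spanned a moderate range of levels. Their geometric means over the 8 libraries ran from 56.4 to 781 FPKM, with a median of 105, against 64.9 to 13993 with a median of 160 in the other loci at the floor. The floor itself favours steadiness at low levels, since a locus near 50 FPKM can pass only if no library falls below it. Shares were therefore also taken over loci of 300 bp or more above 0 in every library, with no floor. There the limit was met by 4.27% of 2481 loci with a geometric mean of 50 to 100 FPKM, 3.90% of 1078 at 100 to 200, 2.72% of 478 at 200 to 400 and 2.93% of 205 at 400 to 800. None of the 115 loci at 800 FPKM or more met it, and their median ratio was 12.7. Below 10 FPKM the limit was met by 0.450% of 11111 loci, a range in which counting error weighs most.

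The most abundant steady locus was P_XLOC_008835 (chromosome 11, 15459459 to 15462365, plus strand), with a geometric mean of 781 FPKM. Its values were 881 FPKM in flower buds, 978 in flowers, 659 in leaves before flowering, 881 in flag leaves after it, 754 in pre-flowering roots, 776 in the library labelled roots after flowering, 588 in milk grains and 801 in mature seeds. Flowers were highest and milk grains lowest, and leaves before flowering came next to the lowest.

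The next in level was M_XLOC_020859 (chromosome 3, 27343286 to 27346711, minus strand), between 445 FPKM in leaves before flowering and 792 in flowers. M_XLOC_021380 (chromosome 3, 32360555 to 32363839, minus strand) ranged from 392 in roots before flowering to 680 in milk grains. M_XLOC_034610 (chromosome 7, 19625523 to 19628293, minus strand) ranged from 427 in leaves before flowering to 638 in flower buds. The ratios of these 4 abundant loci were 1.49 to 1.78, around the median of 1.65 of all steady loci. At the other end of the levels, P_XLOC_030695 (chromosome 6, 20717740 to 20724744, plus strand) ranged from 50.6 FPKM in roots before flowering to 75.9 in the library labelled roots after flowering.

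Together the 113 loci made up 0.323% of the FPKM sum of mature seeds and 0.785% of that of flower buds. Their own summed value ran from 15633 FPKM in leaves before flowering to 18378 in leaves after flowering. The rule bounds each of these loci to 1.8-fold and so bounds their sum, whose evenness is not a finding. The sums of all loci, which the rule does not bound, ran from 2125100 in flower buds to 5305280 in mature seeds. Loci under 300 bp, which the rule leaves out, held 27.4% to 49.7% of those sums.

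Within the allowed range, the steady loci still tilted by library. Each value was taken as a log2 deviation from the geometric mean of its locus over the 8 libraries. The median deviation of the 113 loci was highest in leaves after flowering, at 0.15, and lowest in roots before flowering, at -0.14 as deposited but 0.020 with median-ratio factors (the median over loci of a library's value over the geometric mean of the locus). With equal sums over all loci it was instead highest in flower buds, at 0.60, and lowest in mature seeds, at -0.66. In leaves it was above 0 after flowering and below 0 before flowering under each of the 5 rescalings tried. As deposited, it was 0.08 in milk grains, 0.05 in the library labelled roots after flowering, 0.01 in mature seeds, -0.04 in leaves before flowering, -0.05 in flower buds and -0.08 in flowers. In the other 1583 loci the median deviation was highest in mature seeds, at 0.39, and lowest in flower buds and leaves before flowering, at -0.23 in both. In leaves after flowering it was 0.05, so as deposited the other loci had the same signs in leaves as the steady ones. Over the 7 libraries without the one labelled roots after flowering, the steady median was again highest in leaves after flowering, at 0.16, and lowest in roots before flowering, at -0.13 as deposited. The rule bounds the deviations of the steady loci, so their smaller size is not a finding.

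**Figure D3:**
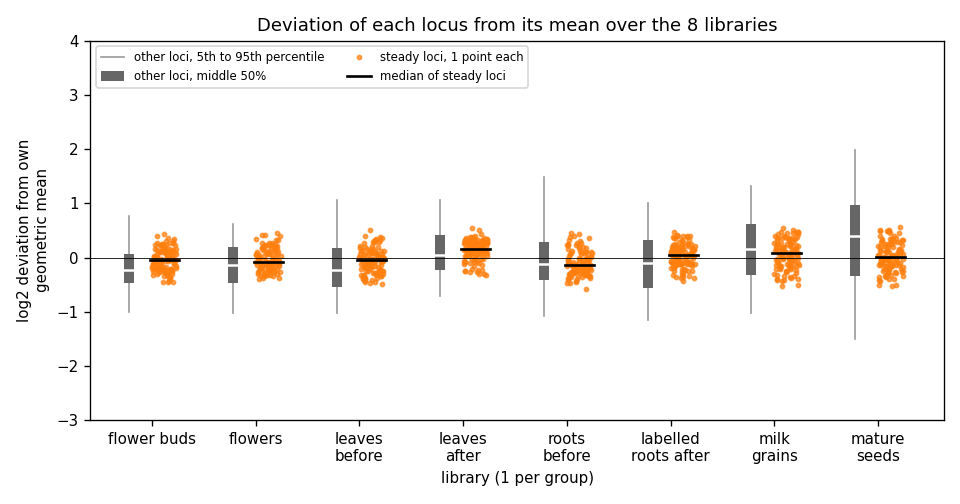
Log2 deviation of each locus from its own geometric mean (vertical axis) in each of the 8 libraries (horizontal axis). Orange points are the 113 steady loci with their median as a black line, and grey bars show the middle 50% (thick, median in white) and the 5th to 95th percentile (thin) of the 1583 other loci at the floor. As deposited, the steady medians lie between -0.14 in roots before flowering (0.020 with median-ratio factors) and 0.15 in leaves after flowering, and the other loci spread most in mature seeds.

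Extremes were counted as well. Of the 113 loci, 28 had their highest value in milk grains, 22 in mature seeds and 21 in leaves after flowering, and the remaining 42 were spread over the other 5 libraries. The lowest value fell in roots before flowering in 22 loci, in leaves before flowering in 19, in mature seeds in 19 and in leaves after flowering in 4. In the other loci at the floor, 19.8% were highest in milk grains, 37.3% in mature seeds and 10.6% in leaves after flowering, against 24.8%, 19.5% and 18.6% of the steady loci. Of those other loci, 14.9% were lowest in roots before flowering and 1.77% in leaves after flowering, against 19.5% and 3.54% of the steady ones. The limit split the steady from the other loci on these same values, so the differences between their shares are not a finding. Without the library labelled roots after flowering, 28 of the 113 were highest in milk grains, 27 in leaves after flowering and 25 in mature seeds, and 26 were lowest in roots before flowering. The order of the libraries changed with the scaling. Once each library was divided by its median-ratio factor, roots before flowering were most often highest, and 7 loci instead of 22 were lowest there. With equal sums over all loci 3 loci instead of 28 were highest in milk grains, and with equal sums over loci of 300 bp or more 1 was.

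Libraries of 1 organ deviated together in some loci and apart in others. As deposited, flower buds and flowers lay on opposite sides of the mean of the locus in 36 of 113 steady loci. The 2 leaf libraries did so in 62 and the 2 seed libraries in 51. Among the 1583 other loci at the floor, the counts were 418, 558 and 662. Both flower buds and flowers lay below the mean of the locus in 50 of 113 steady loci and above it in 27 as deposited, but above it in all 113 with equal sums over all loci. Among the other loci at the floor, 53.0% lay below and 20.6% above as deposited, near the steady shares of 44.2% and 23.9%. Both leaf libraries lay above it in 35 and below it in 16, against 27 and 34 with median-ratio factors. Both seed libraries lay above it in 36 and below it in 26, against 0 and 43 with equal sums over all loci. Among the other loci at the floor, both leaf libraries lay above the mean in 26.7% and below it in 38.1%, and both seed libraries above it in 39.9% and below it in 18.3%. Over the 7 libraries without the one labelled roots after flowering, the steady counts above and below were 25 and 50 for flower buds with flowers, 37 and 18 for leaves and 34 and 23 for seeds. As deposited, the 2 libraries closest to each other over the steady loci were flower buds and flowers, with a median of 1.09-fold apart. Next came leaves after flowering and the library labelled roots after flowering, at 1.11-fold. Farthest apart as deposited were leaves after flowering and roots before flowering, at 1.27-fold. With median-ratio factors the median deviations of these 2 libraries were close, at 0.054 and 0.020. With equal sums over all loci the median deviations farthest apart were those of flower buds, 0.60, and mature seeds, -0.66. In the other loci the farthest pair as deposited was leaves before flowering and mature seeds, at 2.05-fold. The rule bounds the distances between libraries over the steady loci, so their smaller size is not a finding.

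The stage comparisons ask how levels move through flowering and grain filling, and for the steady loci the rule limits every ratio to 1.8-fold. Between flower buds and flowers the median log2 ratio was close to 0, at -0.0019, and 8 of 113 loci were higher in flowers by 25% or more and 7 were higher in flower buds by as much. Over all 1696 loci at the floor, 22.7% were higher and 15.3% lower by that much. The largest rise was in P_XLOC_018432 (chromosome 3, 10372800 to 10376042, plus strand), from 79.2 to 111 FPKM. The largest fall was in M_XLOC_034610, described above, from 638 to 455 FPKM.

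Leaves after flowering were higher than leaves before flowering in 85 of the 113 loci (75.2%) and lower in 28, with a median log2 ratio of 0.18. Of all 1696 loci at the floor, 1248 (73.6%) were higher, so the steady share was near the background. At least 25% apart (the higher value over the lower) were 36 that were higher after flowering and 4 that were lower, beside 45% and 13.6% of all loci at the floor, whose median was 0.28. M_XLOC_008277 (chromosome 11, 3667682 to 3673502, minus strand) had the largest ratio, from 70.9 FPKM before to 127 after flowering, and stood at 117 in the library labelled roots after flowering. Its values in the remaining libraries were 91.7 FPKM in flower buds, 86.4 in flowers, 82.0 in roots before flowering, 86.9 in milk grains and 71.1 in mature seeds. As deposited, leaves after flowering and the library that resembles them thus stood above the other 6, but with equal sums over all loci flower buds stood highest, at 150.2 FPKM against 121 in leaves after flowering. M_XLOC_015119 (chromosome 2, 12414101 to 12421831, minus strand) had the smallest ratio, from 95.5 to 67.9 FPKM.

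The library labelled roots after flowering was higher than roots before flowering at 33 steady loci and lower at 7, again counting loci at least 25% apart, beside 32.2% and 37.9% of all loci at the floor. The direction rests on a label that the data go against. The median log2 ratio was 0.16 as deposited but -0.070 with median-ratio factors, which moved the median of all loci at the floor by -0.23. P_XLOC_039556 (chromosome 9, 13470482 to 13472922, plus strand) had the largest ratio, from 53.5 to 94.4 FPKM. Its values were 74.3 FPKM in flower buds, 73.1 in flowers, 85.5 in leaves before flowering and 88.8 in those after it, 89.4 in milk grains and 92.6 in mature seeds, so roots before flowering stood lowest of all. M_XLOC_025659 (chromosome 4, 34601221 to 34609127, minus strand) had the smallest, from 249 to 141 FPKM, with leaf values of 165 before and 155 after flowering.

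Mature seeds and milk grains differed in both directions. Of the 113 loci, 22 were higher in mature seeds and 25 lower by the same count, beside 42.1% and 32.3% of all loci at the floor, and the median log2 ratio was -0.05. Rescaling to equal sums over all loci moved the median of all loci at the floor by -0.69, and the steady loci then stood at -0.74. Relative to all loci at the floor the steady loci stood at -0.19, a difference that a library factor leaves unchanged by construction. M_XLOC_032069, just inside the limit, had the largest ratio as deposited, from 116 FPKM in milk grains to 204 in mature seeds. With equal sums over all loci it went only from 123 to 134, and with median-ratio factors from 114 to 204. M_XLOC_003409 (chromosome 1, 27668390 to 27671648, minus strand) had the smallest, from 626 to 360 FPKM, and lay between 468 and 609 in the other 6 libraries.

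Some abundant loci were even in all libraries but 1. Among the 1583 loci at the floor outside the limit, 276 met it when 1 particular library was left out and 62 when either of 2 libraries was. As deposited, mature seeds kept out 178 loci, with the seed value higher than all others in 147 and lower in 31. Milk grains kept out 72, with 56 higher and 16 lower, but 15 higher and 28 lower with equal sums over loci of 300 bp or more. Roots before flowering kept out 50, with 25 in each direction, but 41 higher and 18 lower with median-ratio factors and 13 higher and 59 lower with equal sums over all loci. Leaves before flowering kept out 35, and the other 4 libraries between 14 and 20 each. Without the library labelled roots after flowering, mature seeds kept out 216 loci and milk grains 104. The excess of higher values in mature seeds held with median-ratio factors (174 higher and 36 lower) but flipped with equal sums over all loci, to 28 higher and 37 lower.

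**Figure D4:**
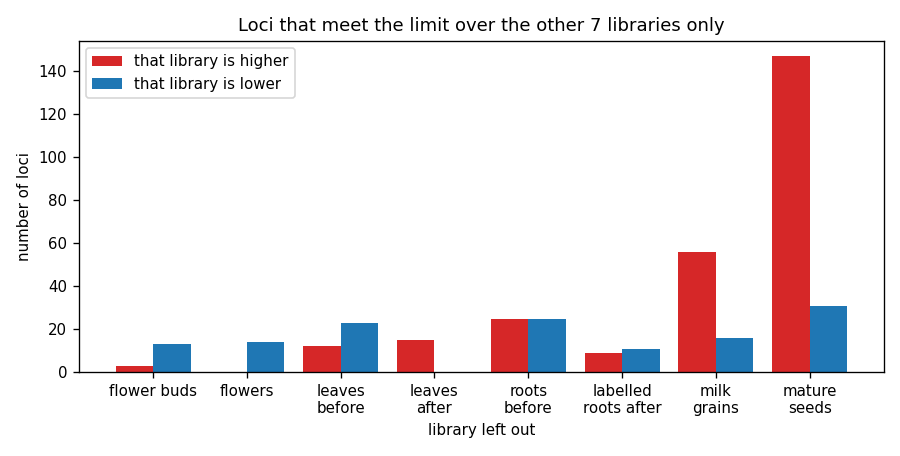
Number of loci (vertical axis) that met the limit of 1.8 over 7 libraries and failed it over all 8, by the library left out (horizontal axis), as deposited. Red bars count loci in which that library was higher than the other 7 and blue bars those in which it was lower; mature seeds stand at 147 and 31, a split that becomes 28 and 37 with equal sums over all loci.

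The clearest of these departures was M_XLOC_034693 (chromosome 7, 20733146 to 20735347, minus strand), at 53700 FPKM in mature seeds and between 2629 and 3999 FPKM in the other 7 libraries, where its ratio was 1.52. Milk grains, the earlier seed stage, were at 3940 FPKM, within that range. The seed value was 13.4-fold above the nearest other library.

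M_XLOC_028475 (chromosome 5, 24444060 to 24445189, minus strand) reached 1874 FPKM in roots before flowering and lay between 127 and 204 elsewhere. The library labelled roots after flowering was at 155 FPKM, within the range of the libraries other than roots before flowering. M_XLOC_026182 (chromosome 5, 182375 to 184800, minus strand) reached 393 FPKM in milk grains and lay between 78.0 and 135 elsewhere, with mature seeds at the top of that range. In these 3 loci the departing library was the highest under every scaling tried.

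For the other 5 libraries the departures were smaller. P_XLOC_012613 (chromosome 12, 24137775 to 24141860, plus strand) reached 195 FPKM in leaves before flowering and lay between 68.7 and 102 elsewhere. M_XLOC_041035 (chromosome 9, 21911963 to 21912683, minus strand) was lowest, with 74.5 FPKM, in the library labelled roots after flowering and lay between 163 and 290 elsewhere, with leaves after flowering at 232. It is thus a locus at which that library differed from both leaves and roots before flowering. P_XLOC_032227 (chromosome 7, 583516 to 586792, plus strand) reached 340 FPKM in leaves after flowering and had at most 262 elsewhere. M_XLOC_013962 (chromosome 2, 534930 to 538203, minus strand) reached 127 FPKM in flower buds and had at most 88.0 elsewhere. M_XLOC_025555 (chromosome 4, 33764877 to 33772389, minus strand) was lowest, with 2803 FPKM, in flowers and had at least 4344 elsewhere, but lay within the range of the other libraries with equal sums over all loci or over loci of 300 bp or more.

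Position and span were not used by the rule beyond the minimum of 300 bp. The 113 loci had a median span of 4062 bp, against 3596 bp in the other loci at the floor, and 0 of them were under 1000 bp, against 3.92% of the others. The shortest was M_XLOC_040726 (chromosome 9, 19195098 to 19196214, minus strand), 1117 bp long and between 279 FPKM in mature seeds and 432 in leaves before flowering. The longest was M_XLOC_029504 (chromosome 6, 723159 to 747648, minus strand), 24490 bp long and between 82.1 FPKM in flower buds and 124 in the library labelled roots after flowering. On the minus strand lay 57.5% of the steady loci and 54.5% of the others.

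All 12 chromosomes held steady loci, from 4 on chromosome 12 to 16 on chromosome 2. As a share of the loci at the floor, steady loci made up 12.3% on chromosome 10 (8 of 65) and 12.2% on chromosome 9 (11 of 90), against 4.23% on chromosome 3 (11 of 260) and 6.66% overall. These shares rest on few loci and were not tested. The loci were scattered: of the 200 kb windows that held any, 109 held 1 and 2 held 2, both on chromosome 9. One of these windows held M_XLOC_040052 and M_XLOC_040046 (12443361 to 12445866, minus strand), and no other locus at the floor. As deposited, both were highest in milk grains, at 182 and 193 FPKM, and had 104 and 134 FPKM in the library labelled roots after flowering. Elsewhere they differed, with 174 and 141 FPKM in flowers. M_XLOC_040052 was lowest in leaves before flowering, at 101 FPKM, and M_XLOC_040046 in the library labelled roots after flowering. With equal sums over all loci their ratios were 3.90 and 3.06.

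The nearest same-strand neighbour met the whole rule for 0 of the 113 steady loci and for 3 of the 1583 other loci at the floor. The 0 is thus near the background. The nearest locus of 300 bp or more on the same strand lay at a median distance of 3147 bp, against 1956 bp for the other loci at the floor. Of these 113 neighbours, 23 were at 0 in some library. The other 90 had a median highest-over-lowest ratio of 8.95, against 7.61 for the neighbours of the other loci. Within 1.8-fold were 4 of the 90 (4.44%), against 16 of 1203 (1.33%). The 3 neighbours of other loci that were steady themselves are left out here and below, which lowers the shares of the other loci slightly. The levels of the neighbours were low in both cases, with median geometric means of 14.1 and 15.7 FPKM, and low values carry more counting error. Among neighbours at 10 FPKM or more in every library the medians were 3.56 (30 loci) and 3.70 (481 loci), and 13.3% and 2.70% were within 1.8-fold. These shares rest on 4 neighbours of steady loci and were not tested.

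The neighbour with the smallest ratio, chosen after its values were seen, was P_XLOC_027285 (chromosome 5, 21205865 to 21207702, plus strand), 849 bp from the steady locus P_XLOC_027284 (21201865 to 21205015). It stood between 12.3 FPKM in leaves before flowering and 17.6 in roots before flowering, a ratio of 1.44. The steady locus stood between 75.03 in milk grains and 110.3 in leaves after flowering, so the extremes of the 2 loci fell in different libraries.

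On the opposite strand, 12 of the 113 loci (10.6%) overlapped a locus of 300 bp or more, against 13.6% of the other loci at the floor, with 14 partners in all, of which 0 were steady. Of the 14 partners 6 were at 0 in some library, and the other 8 had ratios of 13.3 to 794. With only the longest overlap of each locus, 6 of 12 partners were at 0 somewhere, and the other 6 had a median ratio of 274. Of 215 such partners of the other loci, 0 were steady and 76 were at 0 somewhere. The remaining 139 had a median ratio of 11.0, from 1.34 to 1692. Median geometric means were low, at 2.86 and 10.1 FPKM, and the difference was not tested. The longest overlap was 2036 bp, between M_XLOC_039232 (chromosome 9, 3656769 to 3665430, minus strand) and P_XLOC_038733 (3654972 to 3658804, plus strand), a pair named after its values were seen. The steady locus was at 94.96 FPKM in flower buds, 93.8 in flowers, 73.6 in leaves before flowering, 72.5 in flag leaves after it, 74.0 in pre-flowering roots, 81.9 in the library labelled roots after flowering, 91.3 in milk grains and 123 in mature seeds. Its partner was at 167 FPKM in flower buds, 18.2 in flowers, 1.11 in leaves before flowering, 0.385 in flag leaves after it, 77.6 in pre-flowering roots, 0.364 in the library labelled roots after flowering, 6.31 in milk grains and 0.371 in mature seeds. The partner changed 458-fold over libraries in which the steady locus changed 1.70-fold, and it exceeded the steady locus in flower buds and in roots before flowering. In those roots the values were close, at 77.6 and 74.0 FPKM. They lie on strands whose steps at 101 bp loci differed in size, an effect that was not tested here.

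Which loci are steady depended on how the libraries were put on a common scale. Dividing each library by its median-ratio factor over loci above 0 in all libraries gave 129 steady loci, of which 92 were among the 113 (81.4% of the deposited set and 71.3% of the rescaled set). Rescaling to equal sums over all loci gave 78, of which 3 were shared (2.65% and 3.85%). Equal sums over loci of 300 bp or more gave 99, of which 12 were shared. Without the library labelled roots after flowering, median-ratio factors gave 159 steady loci, with 114 of the 138 shared, and equal sums over all loci gave 89, with 5 shared. The equal-sum factors over all loci ran from 0.611 for flower buds to 1.52 for mature seeds. After that division the median ratio of the 113 loci was 2.67. The median-ratio factors ran only from 0.887 for roots before flowering to 1.06 for leaves after flowering, and gave a median ratio of 1.62. Of the 75 loci that were steady with equal sums over all loci but not as deposited, 67 had their highest deposited value in mature seeds and 65 their lowest in flower buds or flowers. That pattern follows from the factors and the selection, and is not a finding.

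A single locus, M_XLOC_002571 (chromosome 1, 18135280 to 18138335, minus strand), was steady as deposited and under all 5 rescalings tried. It stood at 54.0 FPKM in flower buds, 63.3 in flowers, 89.9 in leaves before flowering, 88.5 in flag leaves after it, 67.1 in pre-flowering roots, 82.1 in the library labelled roots after flowering, 63.0 in milk grains and 89.1 in mature seeds. Mature seeds lay above flower buds, an order that follows from meeting the limit both before and after the equal-sum division.

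**Figure D5:**
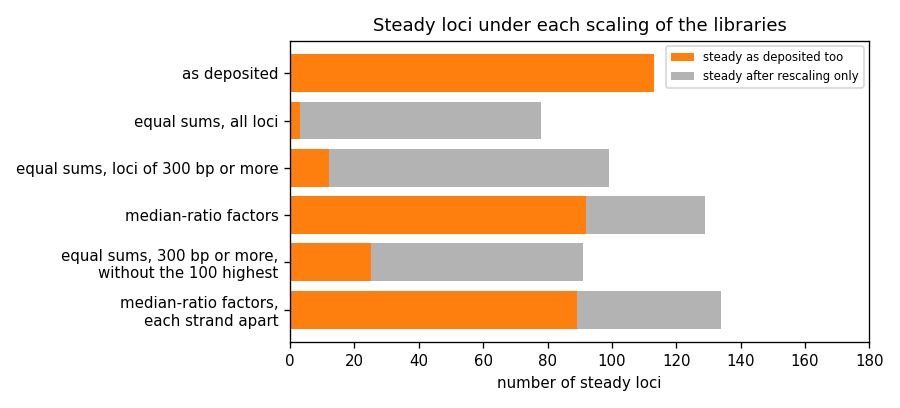
Number of steady loci (horizontal axis) as deposited and under each of 5 rescalings of the libraries (vertical axis). Orange counts loci that were steady as deposited too and grey those that were steady after rescaling only: 92 of 129 were shared with median-ratio factors and 3 of 78 with equal sums over all loci.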

How the data were processed

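The authors deposited 1 table of FPKM values for 8 libraries, with 1 library per group and loci placed on MSU Release 7, per the file headers. The submitters' processing notes name TopHat, Cufflinks and Cuffdiff, with no version or setting. No source used here says how length entered the scaling or how the libraries were put on a common scale. Libraries were stranded and single-end, per the labels. Read totals are unknown. Relative depth was estimated from the shortest loci, where every checked value below 60 steps lay within 0.03 of a whole step, with 1 step size per strand. The estimate holds only if 1 step is 1 fragment and the scaling was alike in every library.

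Locus length was end minus start plus 1, so introns are included. Ratios used FPKM without a pseudocount. Each group has 1 library, so nothing was tested. Neighbours and overlaps were taken among loci of 300 bp or more. In stage pairs, loci at least 25% apart were counted. Median-ratio factors are the median over loci of a library's value over the geometric mean of the locus. Python 3.11.15, pandas 2.3.3, NumPy 2.4.6 and Matplotlib 3.10.9 were used.

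The loci and lists were chosen with earlier results of these data known. The named loci were the 8 steadiest, the 4 highest and 2 lowest in level, the longest and shortest, those beside the limit, the extreme ratios of each stage pair, the densest window and, for each library, the largest departure it alone caused. Overlapping pairs of steady loci were to be named too, and 0 were found. Loci named outside this rule are marked as such in the text, and M_XLOC_002571 was also named after its values were seen.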

Additional observations from a re-analysis of the deposited data

Results flagged for a closer look

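M_XLOC_015119 was lower after flowering in leaves but higher in the later of the libraries labelled roots. Its log2 change was -0.49 in leaves (95.5 to 67.9 FPKM) and 0.070 in the libraries labelled roots (77.2 to 81.1 FPKM), a difference of -0.56. With median-ratio factors the later of the libraries labelled roots was also the lower, at 78.0 against 87.1 FPKM. The difference was not tested, each value rests on 1 library, and the later root library goes against its label. Of the 113 steady loci, 30 were higher after flowering in leaves but lower in the root-labelled pair and 18 did the reverse, while 55 were higher after flowering in both and 10 lower in both. These are 26.5%, 15.9%, 48.7% and 8.85% of the steady loci, beside 38.9%, 12.9%, 34.7% and 13.6% of all 1696 loci at the floor, all as deposited and untested.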

How the results depend on the processing

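The count of 113 steady loci was 25 at a limit of 1.5, 213 at a limit of 2, 461 at a floor of 10 FPKM, 43 at a floor of 100 and 533 with any value above 0. It ranged from 128 to 322 when each library was left out in turn, the highest without mature seeds, 195 without milk grains and 182 without roots before flowering. A pseudocount of 1 gave 116, and another length filter gave the same 113 loci. After seeing the data, sums without the 100 highest loci (91 steady, 25 shared) and median-ratio factors for each strand (134, 89 shared) were added.

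With equal sums over all loci the median log2 ratio of steady loci was 0.072 in leaves and -0.74 in seeds. Equal sums over loci of 300 bp or more gave 0.055 in flowers over flower buds, 0.34 in the libraries labelled roots and -0.55 in seeds. Median-ratio factors gave 0.11 in leaves but -0.070 in the libraries labelled roots. The number highest in milk grains was 3 and 1 under the equal sums, and the number lowest in roots before flowering was 7 with median-ratio factors. The median span was 4609 bp at a limit of 1.5. The median ratio of same-strand neighbours was 3.56 at 10 FPKM or more, where no opposite-strand partner was left. Division by a library factor moves every locus by the same amount; further causes were not tested. No paired analysis was possible because each group has 1 library. The effect of depth on the values was not measured.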
